A study of Mus musculus with 10 samples.

Results

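Accessible chromatin was compared between mouse embryonic fibroblasts (MEFs) given Sox2, Klf4 and the Oct4 mutant L80A together (SKO-L80A) and MEFs given the Oct4 mutant alone (Oct4-L80A). Both arms carried the mutant, so the difference between them goes with the addition of Sox2 and Klf4. The comparison was chosen by condition and used 2 of the 10 libraries, or 4 of the 20 signal columns, over all 21965 genes. The MEFs came from E13.5 embryos of a strain labelled ICR that carried GFP under a transgenic Oct4 promoter. They were used within 2 passages, infected with pMXs retrovirus made in plat-E cells and kept in mESC medium, and living cells were lysed for transposition. A Flag control virus, each single factor, wild-type SKO (Sox2, Klf4 and Oct4), SKO with a hairpin against Brg1, and SKO-L80A with vitamin C (Vc) or Gadd45a (Ga) were read only as levels or in comparisons of their own.

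ATAC-seq uses a transposase that inserts sequencing adapters into open DNA, so the signal at a gene reports how accessible its chromatin is, not how much RNA it makes. Oct4 is a POU-domain factor that binds octamer sequences and often pairs with Sox2, an HMG-box factor. Klf4 is a zinc-finger factor of epithelia, gut and skin that binds GC-rich sequences, and the 3 factors together reprogram fibroblasts to pluripotency. Reprogramming of fibroblasts is known to pass through a loss of mesenchymal and a gain of epithelial features, the mesenchymal-to-epithelial transition.

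Each condition had 1 library with 2 columns, taken as repeat measurements, so no difference carries a replicate error and no test was made. Differences are log2(signal + 0.138) per column pair, minus the median of all genes in that pair, averaged over both pairs. A gene is called higher or lower when this centred difference is at least 2-fold and the higher mean signal reaches 6.92, the median over the whole table. Below, folds are on that same scale. Column 1 of Oct4-L80A had the lowest summed signal of all 20 columns (112439, against 238295 in its column 2), while SKO-L80A had 280334 and 319763. Fewer accessible cells and less signal per cell cannot be told apart in bulk libraries.

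In SKO-L80A, 262 genes were higher than in Oct4-L80A, which is 1.19% of all genes, and 8 were lower, which is 0.0364%. All 262 lay above 0 in both column pairs, and 174 of them were at least 2-fold higher in each pair. The median of the 262 differences was 1.30, with 74 genes at least 3-fold, 38 at least 4-fold and 4 at least 8-fold higher. The lists of detoxification and of epithelial genes held the largest shares of higher genes besides the supplied factors, whereas the fibroblast genes Col1a1 and Twist1 and most pluripotency genes differed by less than the threshold. Just inside it lay Ccl2 (1.001) and Bche (1.001), and just outside it Morn3 (0.9995) and Iqca (0.9988).

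The promoters of 4 of the higher genes, as RefSeq gives them on GRCm38.p6, are shown because they carry the letters known for the supplied factors, or none of them at the gene with the largest increase. Each line holds the 250 bases before a start site, on the gene's strand. Capitals mark a match, on either strand, to the KLF letters GGGNGTGG, the SOX letters CATTGTT or the octamer ATGCAAAT. Kcnk7, Akr1c14 and Acsbg1 were chosen after the search, as the strongest higher gene with a match to the named letters among the genes called in Klf4, in Sox2 and in neither.
Cyp3a13, chr5:137921620-137921869, minus strand: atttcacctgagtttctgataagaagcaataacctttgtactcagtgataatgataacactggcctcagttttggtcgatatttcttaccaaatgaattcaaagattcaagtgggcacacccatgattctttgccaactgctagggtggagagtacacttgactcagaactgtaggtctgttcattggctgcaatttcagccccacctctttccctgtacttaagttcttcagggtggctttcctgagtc
Kcnk7, chr19:5704221-5704470, plus strand: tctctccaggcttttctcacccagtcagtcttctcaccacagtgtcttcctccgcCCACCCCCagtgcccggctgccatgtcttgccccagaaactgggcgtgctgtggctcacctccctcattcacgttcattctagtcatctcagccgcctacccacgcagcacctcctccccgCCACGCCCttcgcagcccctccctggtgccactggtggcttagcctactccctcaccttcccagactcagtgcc
Akr1c14, chr13:4059341-4059590, plus strand: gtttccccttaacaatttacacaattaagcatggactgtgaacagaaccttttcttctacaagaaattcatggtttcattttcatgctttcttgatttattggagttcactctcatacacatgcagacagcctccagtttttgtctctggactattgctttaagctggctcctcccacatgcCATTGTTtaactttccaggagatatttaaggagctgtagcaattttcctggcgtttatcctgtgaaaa
Acsbg1, chr9:54661886-54662135, minus strand: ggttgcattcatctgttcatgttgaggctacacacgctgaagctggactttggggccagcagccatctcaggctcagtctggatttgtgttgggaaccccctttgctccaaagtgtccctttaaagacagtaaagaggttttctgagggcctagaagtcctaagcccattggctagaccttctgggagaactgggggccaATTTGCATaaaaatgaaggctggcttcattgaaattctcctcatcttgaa
The Kcnk7 promoter had KLF letters 195 and 74 bases before the start, Akr1c14 had SOX letters 68 bases before it, and Acsbg1 had an octamer 50 bases before it. The Cyp3a13 window had no match to these motifs. The Cyp3a13 entry lies inside the annotated gene (137892933 to 137925610), and the counting window was not given in the sources used here, so a match is a description of letters and not of a bound site.

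The supplied factor genes were examined first, because part of the reads over their exons may stem from viral inserts and not from the endogenous genes. Sox2 had a signal of 38.5 and 51.8 in SKO-L80A and of 2.37 and 5.47 in Oct4-L80A, a difference of 2.84. Klf4 had 62.6 and 83.5 against 11.9 and 19.3, a difference of 1.50. Both genes stood higher in the arm whose label names them, with no overlap between the arms. Pou5f1, which encodes Oct4, had 15.4 and 27.5 in SKO-L80A against 19.0 and 49.6 in Oct4-L80A, a difference of -1.31. Flag had 0.812 and 1.12 at Pou5f1, so both arms stood above the control there, and their ranges overlapped before centring. At 62.9 and 55.2, Sox2 was also high in the library labelled Oct4, whose label does not name that factor, which bears on every value below that uses it. Pou5f1 stood at 2.34 and 3.03 in the library labelled Sox2, a centred difference of 1.45 from Flag, though under the minimum signal. The source of that signal was not tested, and "Sox2 alone" below follows the label.

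The fibroblast markers fixed for the comparison were present in both arms. Their 10 signals summed to 110 and 115 in SKO-L80A and to 50.5 and 105 in Oct4-L80A, with 7 and 6 markers at the minimum signal. Blood markers summed to 27.7 and 22.3 against 8.51 and 11.6, with Csf1r, a macrophage receptor, the single one of 6 at the minimum in SKO-L80A. The centred difference of Csf1r was 0.54. Cd68, another blood marker, had 5.67 and 5.20 against 0.862 and 1.72, a difference of 1.29, and was not called because it stayed under the minimum. Neural markers summed to 28.0 and 36.6 against 10.4 and 26.4, with 2 of 4 at the minimum in each arm. Epithelial markers summed to 17.9 and 22.8 against 8.77 and 15.9, with Krt8 the 1 of 6 at the minimum in SKO-L80A and called higher. No marker of endothelium, muscle or pluripotent cells reached the minimum in either arm, and none of the 38 markers was at 0. The part of other cells in the results was not tested.

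Cyp3a13, a cytochrome P450 that oxidises drugs and steroids, had the largest increase. Its signal was 9.27 and 12.1 in SKO-L80A against 0.262 and 0.648 in Oct4-L80A, a difference of 3.51 or 11.4-fold. The Oct4-L80A values lie near the pseudocount, and the difference was 2.80 with a pseudocount 4 times larger and 3.80 with one 4 times smaller. It stood at 0.567 and 0.316 in Flag and at 11.6 and 12.7 in Klf4 alone. Both Klf4 columns were thus as high as those of SKO-L80A, and Sox2 alone (0.330 and 0.400) was as low as Flag. Ugt1a6a, which conjugates phenolic drugs to glucuronic acid, had 11.2 and 9.92 against 0.370 and 1.62, a difference of 2.75. In single-factor cells Ugt1a6a stayed under the minimum signal, at 1.47 and 2.004 in Klf4 and 0.758 and 0.748 in Sox2. Flag had 0.759 and 0.776 there, so Klf4 stood above Flag by a centred difference of 1.01. The library labelled Oct4 had 2.67 and 3.29.

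Of the 51 genes of the intestine, liver and detoxification list, 5 were higher (9.80%) and 0 lower, with a list median of -0.20 beside 0.01 over all genes. Besides Cyp3a13 and Ugt1a6a these were Isx (1.67), an intestinal homeobox factor, Adh7 (1.37), a retinol and alcohol dehydrogenase, and Gsta4 (1.11), a glutathione transferase for lipid aldehydes. Isx had 16.4 and 15.7 in SKO-L80A against 1.95 and 4.28 in Oct4-L80A. Adh7 had 16.8 and 12.6 against 2.62 and 4.09, and it differed from Isx in its single-factor levels. Isx stood at 21.0 and 26.9 in Klf4 and 2.34 and 3.06 in Sox2, whereas Adh7 stood at 5.58 and 4.78 in Klf4 and 11.6 and 11.97 in Sox2. Only 11 of the 51 genes reached the minimum signal, so most of the list stayed under it in both arms.

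Genes of stratified epithelium came next, with 4 of 53 higher (7.55%) and 0 lower. Anxa8, an annexin of stratified epithelia, had 14.6 and 15.0 in SKO-L80A against 1.74 and 2.41 in Oct4-L80A, a difference of 2.03. Pkp1, the desmosomal plakophilin of skin, had 11.9 and 14.6 against 1.18 and 4.22, a difference of 1.74. In both genes the arms did not overlap, and column 2 of Oct4-L80A was the higher of its columns. Aqp3 (1.45), the water and glycerol channel of the epidermis, and Perp (1.09), a desmosomal tetraspan protein, were also called, Perp at 0.96 once the lowess trend was removed. Dsp, which encodes desmoplakin of the same junctions, had 12.8 and 15.3 against 2.57 and 6.52 and fell short of the threshold at 0.997. Krt16, a keratin of stressed epidermis, and Evpl, the cornified-envelope protein envoplakin, had differences of 1.66 and 1.51 without counting as called. Krt16 reached only 6.36 and 6.32 in SKO-L80A and Evpl 5.78 and 7.64, under the minimum signal on average. The largest difference of the list, 3.06, was likewise at a gene under the minimum signal and not called. Only 12 of the 53 genes reached the minimum signal. Below 0 lay 26 of the 53, near the share over all genes (10646 of 21965). Krt5 (-0.77) and Krt14 (-0.15), the basal keratins, Trp63 (-1.17), the p63 factor of basal cells, and Krt4 (-1.55), the lowest of the list, were among these 26, all under the minimum signal. Genes under the minimum signal read below 0 in part through the centring, and Krt5 was at -0.24 once the lowess trend was removed.

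Of the 42 genes of simple epithelium and the mesenchymal-to-epithelial transition, 3 were higher (7.14%) and 0 lower. Cldn3, a tight-junction claudin, had 12.2 and 12.8 in SKO-L80A against 1.83 and 2.63 in Oct4-L80A, a difference of 1.70. Krt8 (1.06), a keratin of simple epithelia, was also called (0.68 in column pair 1 alone). Krt18, the usual partner of Krt8, was under the minimum signal, with 1.29 and 1.67 in SKO-L80A against 1.14 and 1.67 in Oct4-L80A. The centred difference of Krt18 was -0.66, and -0.21 once the lowess trend was removed. Cdh1, the epithelial cadherin, had 2.08 and 2.80 against 1.42 and 2.13. The epithelial adhesion gene Epcam had 1.41 and 3.46 against 1.16 and 2.66. These last 2 genes stayed below the minimum signal in both arms. The median of the simple epithelium list was 0.13, and that of the stratified list 0.05.

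The pluripotency network had 1 of its 43 genes called higher (2.33%) and 0 lower. This was Gdf3, a TGF-beta superfamily ligand found in pluripotent cells, with 8.39 and 7.94 in SKO-L80A against 1.62 and 2.05 in Oct4-L80A, a difference of 1.34. Gdf3 stood between 0.585 and 0.933 in Flag, Sox2 and Klf4, and the library labelled Oct4 had 5.31 and 4.64. Nanog, a core pluripotency factor, had 0.0918 and 0.483 in SKO-L80A against 0.480 and 0.657 in Oct4-L80A, all near the floor of the table. Esrrb (-0.09) and Sall4 (-0.23), factors of the same network, were below the minimum signal in both arms. The list median was -0.04, and Tet1 (0.46), a methylcytosine dioxygenase, was likewise not called.

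Among 50 fibroblast identity genes, 1 was higher and 1 lower, with a list median of -0.03. Thy1, a surface glycoprotein of fibroblasts, had 6.79 and 5.44 in SKO-L80A against 5.72 and 11.3 in Oct4-L80A, a difference of -1.14. Flag had 3.01 and 5.46 at Thy1, so Oct4-L80A stood above Flag in both columns and SKO-L80A overlapped Flag. Mfap5, a microfibril protein of the matrix, had 9.03 and 11.4 against 2.19 and 3.27, a difference of 1.13 (0.84 in column pair 1 alone). Collagen Col1a1 had 25.0 and 21.4 against 9.63 and 19.8, a centred difference of 0.00. Twist1 (-0.16) and Prrx1 (-0.13), mesenchymal transcription factors, Lox (-0.46), the collagen cross-linking oxidase, and Myl9 (-0.79), a myosin light chain of contractile cells, were not called. None of the 23 contractile genes in the table and none of the 22 AP-1 and TEAD genes was called, counts that in lists this short are close to the 1.19% of all genes.

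Smaller counts stood in the other lists, to be read beside the 1.19% of all genes called higher. Stmn2 (1.72), a microtubule regulator of neurons, was the 1 called gene of 39 neural genes (2.56%). Col2a1 (1.53), the cartilage collagen, was the 1 of 28 muscle, cartilage and bone genes (3.57%). Ccl7 (1.23) and Ccl2 (1.00, and 0.73 in column pair 2 alone), monocyte chemokines, were called among 34 interferon and inflammatory genes (5.88%). Counts of 0 or 1 in lists this short are close to the share over all genes. No gene was called in the lists of trophectoderm, endoderm, 2-cell-like and germline genes, the Brg1 complex, heterochromatin and DNA demethylation, TGF-beta, BMP and Wnt signalling, Sox and Klf paralogs, or housekeeping. Gadd45a (0.37) and Smarca4 (-0.12), which encodes Brg1, were among those not called.

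Other leading genes came from outside the epithelial and detoxification lists. Crtam, an adhesion molecule of T cells and epithelia that is in the blood and endothelium list, had 12.7 and 9.37 in SKO-L80A against 0.590 and 0.709 in Oct4-L80A, a difference of 3.07. Tns4, a tensin at focal adhesions of epithelial cells, had 27.5 and 28.3 against 1.47 and 3.46, a difference of 2.80. In both of them the lower SKO-L80A column was several times the higher Oct4-L80A column. Shroom3, an actin regulator that shapes epithelial sheets, had 45.4 and 42.0 against 2.73 and 5.59, a difference of 2.69. E330017A01Rik (3.34), Klra2 (2.98), a receptor of natural killer cells, 1700016C15Rik (2.98), Prss38 (2.77), a serine protease, and Ppp3r2 (2.73), a calcineurin subunit of testis, were also among the 12 largest. The handling of reads shared by near-identical copies was not given in the sources used here, so Ugt1a6a, Klra2 and Akr1c14, members of multigene families, are uncertain in that respect.

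**Figure D1:**
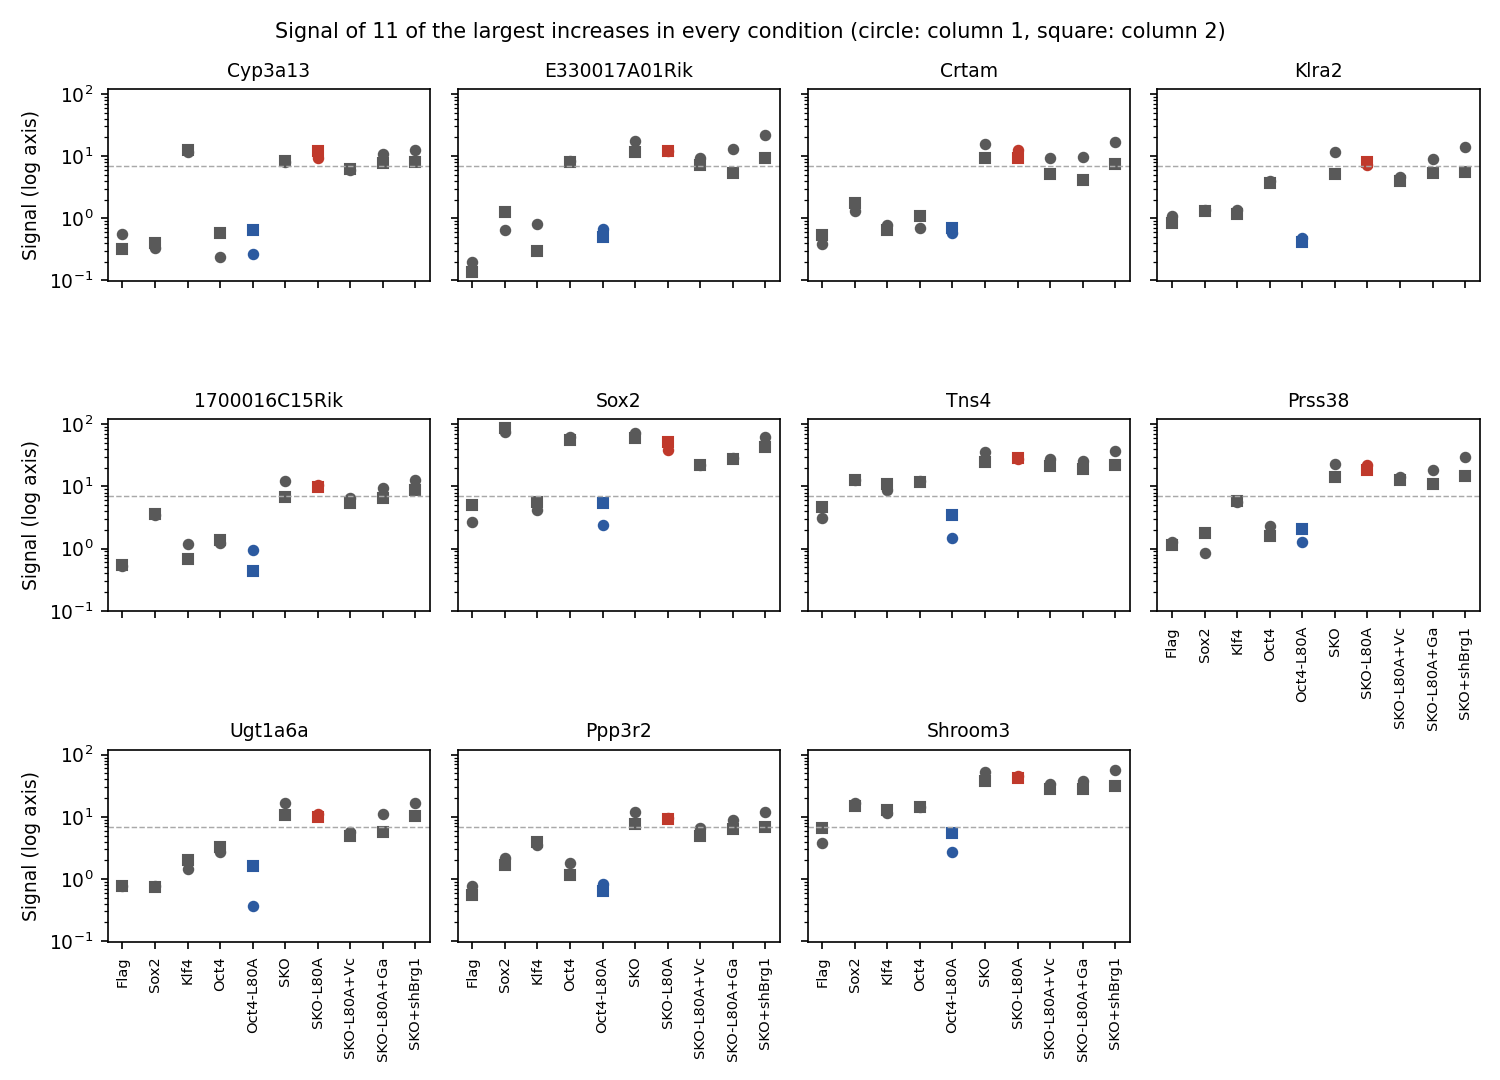
Signal on a log axis of 11 of the 12 genes with the largest increase, in each of the 10 conditions, with a circle for column 1, a square for column 2, red for SKO-L80A, blue for Oct4-L80A and a dashed line at the minimum signal of 6.92. The SKO-L80A points lie above the Oct4-L80A points in each panel, and Cyp3a13 is as high in Klf4 alone as in SKO-L80A.

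Of the 8 lower genes, all had the same sign in both pairs after centring and 3 were at least 2-fold lower in each. Besides Pou5f1 and Thy1 they were Gm10800 (-1.31), Gm4861 (-1.23), Nisch (-1.13), which encodes an imidazoline-binding protein, A730049H05Rik (-1.11), Enpp6 (-1.10), a choline-specific phosphodiesterase, and Gm10964 (-1.05). Before centring, only Pou5f1 and Gm10800 were below 0 in both pairs. In pair 1 the others were above 0 before centring: Gm10964 (0.34), A730049H05Rik (0.32), Thy1 (0.24), Gm4861 (0.14), Nisch (0.04) and Enpp6 (0.02). Nisch had 9.05 and 10.8 in SKO-L80A against 8.80 and 19.1 in Oct4-L80A, so its arms overlapped before centring. At Gm10800 the columns had 17.4 and 22.2 against 29.3 and 29.1, and there they did not overlap. Flag stood above both SKO-L80A columns at Gm10800, with 25.6 and 27.7.

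**Figure D2:**
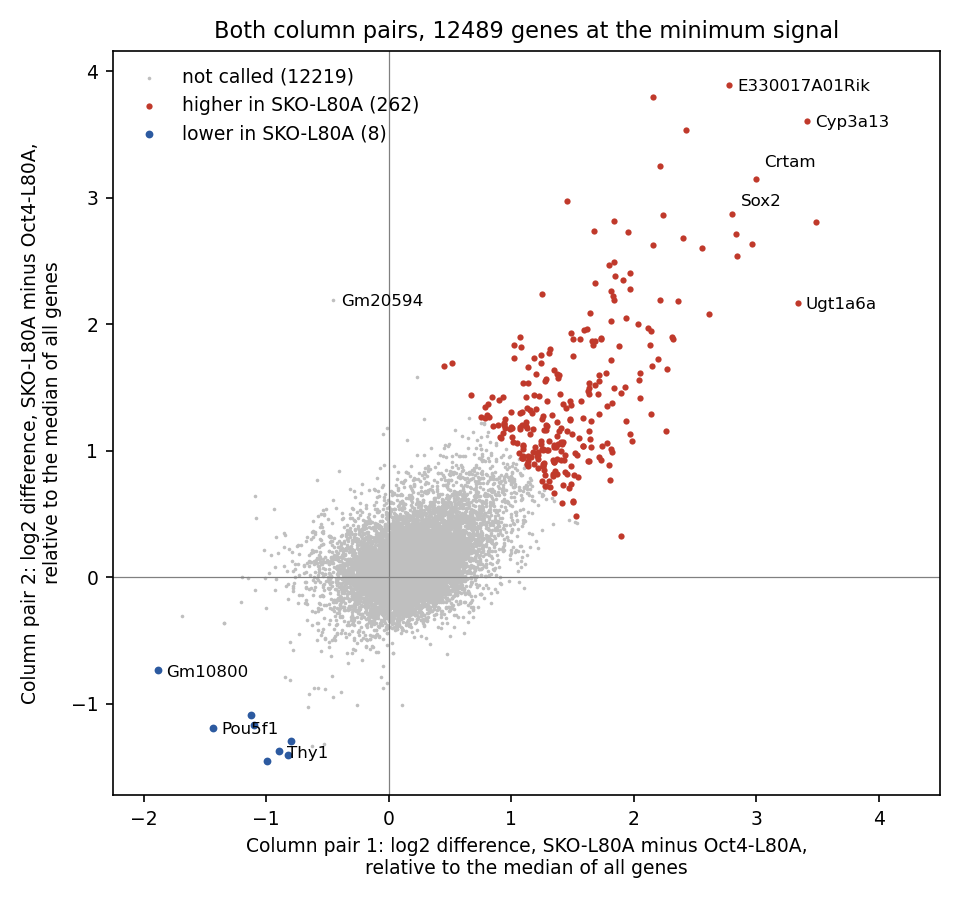
Centred log2 difference, SKO-L80A minus Oct4-L80A, in column pair 1 (horizontal axis) and column pair 2 (vertical axis) for the 12489 genes that reached the minimum signal; red points are the 262 higher and blue points the 8 lower genes. The red points extend to the upper right, up to Cyp3a13 at 3.42 and 3.61, and Gm20594 lies apart at -0.46 and 2.20.

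The pairs differed in how far the whole table moved. Before centring, the median of all genes was 1.14 higher in SKO-L80A in pair 1, or 2.20-fold, and 0.34 higher in pair 2, or 1.27-fold. Genes that reached the minimum moved by 1.34 and 0.43, whereas those under it moved by 0.00 and 0.01. Relative to the median, genes under the minimum therefore read as -1.14 and -0.33, which bears on the list medians. The 2-cell-like and germline list of 24 genes had a median of -0.76, but 0.03 once the lowess trend with mean signal was removed. Across the 12489 genes at the minimum, the differences of both pairs had a Pearson r of 0.604 and a Spearman rho of 0.400, a description over genes that share these libraries. Gm20594 illustrates a gene on which the pairs were apart, with 5.79 and 36.8 in SKO-L80A against 3.55 and 6.21 in Oct4-L80A.

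**Figure D3:**
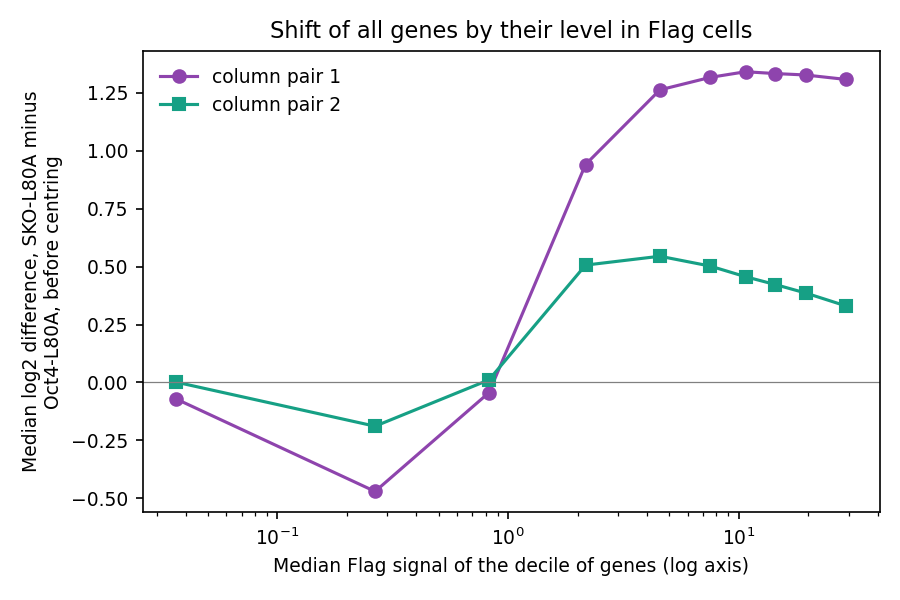
Median log2 difference before centring, SKO-L80A minus Oct4-L80A, in each decile of genes by Flag signal (log axis), for column pair 1 (circles) and column pair 2 (squares). The highest 5 deciles lie between 1.31 and 1.34 in pair 1 and between 0.33 and 0.50 in pair 2, and the lowest 3 lie at or below 0.01 in both.

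The call counts moved with this scaling. Without centring 3521 genes were higher and 0 lower, quantile normalisation of the 4 columns left 139 higher and 18 lower, and with no minimum signal 386 were higher and 2778 lower, so that the share of higher calls was 97.0%, 100%, 88.5% and 12.2% in the calls as described and under these 3 settings in turn.

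The higher genes mostly had low but not absent signal in control cells. Over the 262 genes, the median signal was 3.64 in Flag, 2.96 in Oct4-L80A and 13.3 in SKO-L80A, beside 6.03, 5.41 and 10.0 over all genes. By quartile of Flag signal, 11 of them lay in the lowest, 189 in the second, 59 in the third and 3 in the highest, which is 0.200%, 3.44%, 1.07% and 0.0546% of the genes there. Only 11 genes of the lowest quartile reached the minimum in either arm, and each of them was called, so the rule itself decides the calls in that quartile. The Flag columns had medians of 2.79 and 4.52 over the 262 genes and the Oct4-L80A columns 1.96 and 4.10.

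Libraries outside the comparison were then used to ask what each added factor did alone at these genes. In Sox2 alone, 14 genes were higher than in Flag (0.0637% of all genes), and 12 of them were among the 262, the Sox2 gene included. In Klf4 alone, 157 genes were higher than in Flag (0.715%), and 70 of them were among the 262, the Klf4 gene included. Put as shares of each list, these are 85.7% of the Sox2 genes and 44.6% of the Klf4 genes, and 4.58% and 26.7% of the 262. Of the 23 genes lower in Sox2 (0.105% of all genes) 0 were called either way. Of the 35 genes lower in Klf4 (0.159%) 3 were lower here, namely Gm4861, Nisch and A730049H05Rik, which is 8.57% beside the 0.0364% of all genes called lower. Across the 12489 genes, the difference of SKO-L80A from Oct4-L80A had a Pearson r of 0.372 with that of Sox2 from Flag and of 0.571 with that of Klf4 from Flag. None of these comparisons shares a library with the one described, although the single-factor comparisons share Flag with each other.

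By these calls the 262 genes fell into 68 called in Klf4, 10 called in Sox2, 2 called in both and 182 called in neither. The Klf4 group held Cyp3a13, Isx, Anxa8 and Pkp1, along with Pou2af1 (2.21), a B-cell coactivator of octamer factors, Nppb (2.10), a natriuretic peptide, Tgm2 (1.80), the tissue transglutaminase, and Heyl (1.44), a Notch target. Nppb had 29.0 and 29.5 in SKO-L80A, 2.50 and 6.20 in Oct4-L80A, 14.5 and 16.3 in Klf4 and 5.82 and 7.31 in Sox2. Before centring, its Klf4 level was thus above both Sox2 and Flag (5.73 and 7.87) and below SKO-L80A.

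Besides Sox2 itself, the Sox2 group held Akr1c14 (2.35), an aldo-keto reductase, Clec2h (2.02), a lectin-like ligand, Vpreb3 (1.83), of the pre-B-cell receptor, Agbl1 (1.71), Acot1 (1.58), an acyl-CoA thioesterase, Gstm7 (1.48), a glutathione transferase, Adh7, Slc25a21 (1.08), a mitochondrial carrier, and Pls1 (1.08), an actin bundler of intestinal microvilli. Akr1c14, whose promoter with SOX letters is printed above, had 18.6 and 17.3 in SKO-L80A, 1.25 and 3.11 in Oct4-L80A, 11.9 and 8.63 in Sox2 and 2.48 and 3.84 in Klf4. Flag had 4.09 and 5.53, above Oct4-L80A. Tns4 and Shroom3 were the genes called in both. Before centring, Tns4 stood at 12.6 and 12.5 in Sox2, 8.75 and 10.9 in Klf4 and 3.15 and 4.71 in Flag, all below its level in SKO-L80A. The column medians over all genes were lower there as well. They were 3.99 and 7.79 in Sox2 and 5.51 and 7.27 in Klf4, against 8.84 and 10.9 in SKO-L80A.

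**Figure D4:**
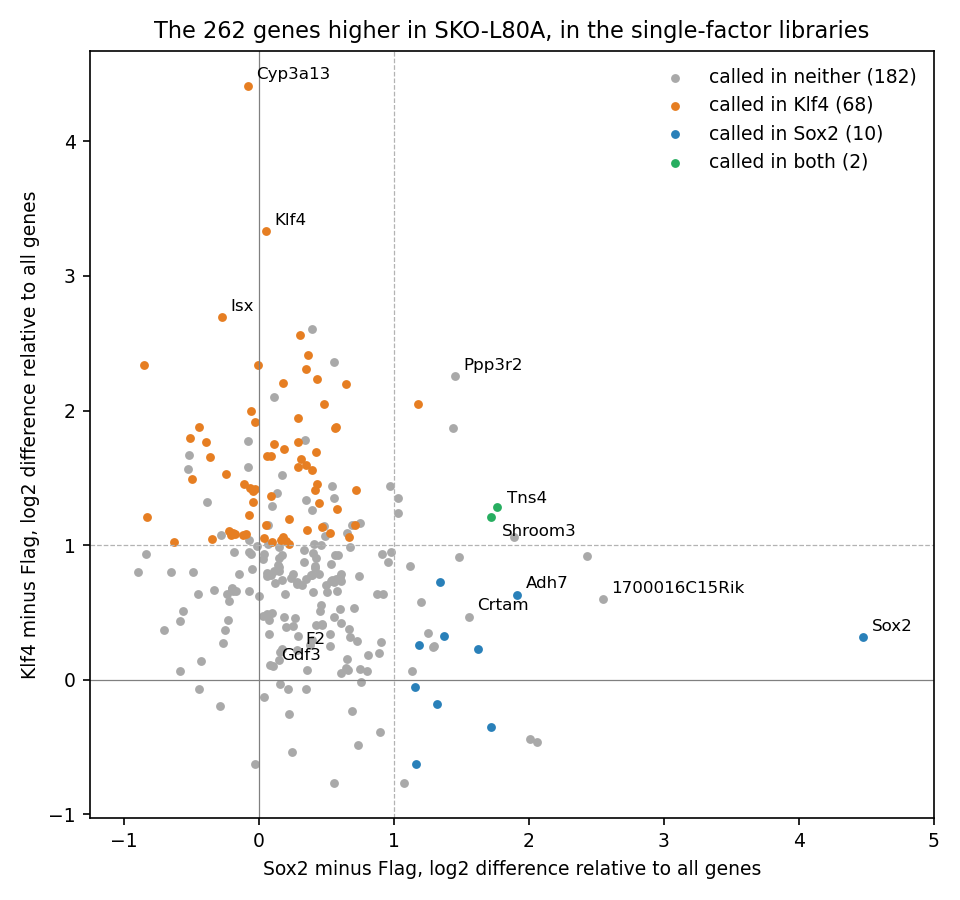
Centred log2 difference of Sox2 from Flag (horizontal axis) and of Klf4 from Flag (vertical axis) for the 262 genes higher in SKO-L80A, coloured by the single-factor call; dashed lines mark 2-fold. Cyp3a13 lies at the top with Klf4, Sox2 at the far right, and 182 grey points were called in neither.

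The 182 genes called in neither did not all stay near Flag with the single factors. Of them, 45 were at least 2-fold higher in Sox2 (18) or Klf4 (32) but under the minimum signal there. No share over all genes was computed for these counts, so they cannot be set against other genes of low signal. Prss38 is an example, with 5.57 and 5.93 in Klf4 against 1.29 and 1.13 in Flag. At the other end, 38 had differences below 0.5 with both factors. F2, which encodes prothrombin, had the largest difference of these, at 2.39, with 14.1 and 14.1 in SKO-L80A against 1.31 and 1.68 in Oct4-L80A. It stood at 1.14 and 2.05 in Sox2, 1.32 and 1.94 in Klf4, and 1.34 and 1.31 in Flag, while the library labelled Oct4 had 1.86 and 1.86. Only combinations with Sox2 and Klf4 together were high at F2, with SKO at 17.4 and 10.3. Lemd1 (2.02), Plekha6 (1.96), Cdsn (1.55), the corneodesmosin of skin, and Col2a1 were in the same set of 38. Of these 38, 15 were called higher in SKO than in Flag, beside 1.25% of all genes.

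The sum of both single-factor differences was set beside the difference in SKO-L80A. Over the 262 genes the median sum was 1.18, and the median excess of the observed difference over the sum was 0.15. That excess was -0.15 in the Klf4 group, -0.05 in the Sox2 group and 0.37 in the group called in neither. In 34 genes the observed difference exceeded the sum by at least 1, 33 of them called in neither. Because the 262 genes were chosen for a high value of the difference, and Flag enters both terms of the sum, these medians are a description and support nothing further.

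SKO and the library labelled Oct4 gave a separate comparison, in which the reference also carried a high Sox2 signal, as given above. In SKO, 122 genes were higher than in the library labelled Oct4 (0.555% of all genes), and 96 of them were among the 262, which is 78.7% of those 122 and 36.6% of the 262. Across the 12489 genes the differences had a Pearson r of 0.693. By group, 44 of the 68 Klf4 genes were called higher, 51 of the 182 called in neither, and 0 of the 10 Sox2 genes. A count of 0 among 10 genes is close to the 0.555% of all genes. The Sox2 genes had a median difference of 0.49 there, and 5 of these 10 were already called higher in the library labelled Oct4 than in Flag (0.187% of all genes). The Sox2 gene itself is among the 10 and among the 5, at 3.73 above Flag in that library and -0.15 in SKO relative to it. Its place in both counts follows from the Sox2 signal given above. Agbl1 shows the levels, at 8.27 and 9.83 for the library labelled Oct4 and 16.5 and 8.74 for SKO, against 1.40 and 4.56 in Oct4-L80A and 16.1 and 13.2 in SKO-L80A. The Sox2 signal of the library labelled Oct4 moves with this group, and its part in the values was not tested.

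The higher genes were also above Flag in the other combined libraries. In SKO, 274 genes were higher than in Flag (1.25% of all genes), and 187 of them were among the 262. In SKO-L80A+Vc the count was 121 of 169 (0.769%), and in SKO-L80A+Ga 131 of 171 (0.779%). In each of these libraries the difference from Flag was above 0 in both column pairs for 259, 261 and 261 of the 262 genes, beside 43.6%, 28.7% and 31.3% of all genes at the minimum. Of the 262, 91 were called in all 3. The share of all genes called in all 3 was not computed, but it cannot exceed the 0.769% called in SKO-L80A+Vc. These 3 comparisons share Flag with each other and no library with the one described. SKO+shBrg1, with 187 of its 278 called genes (1.27%), gave a like count.

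Medians over the groups put the levels side by side. The 68 Klf4 genes had a median signal of 10.0 in Klf4, 3.50 in Sox2, 4.91 in the library labelled Oct4 and 14.1 in SKO-L80A. For the 10 Sox2 genes these were 4.58 in Klf4, 9.94 in Sox2, 8.83 in the library labelled Oct4 and 14.7 in SKO-L80A. The 182 genes called in neither had 5.93, 4.77, 6.35 and 12.5 in the same order. These signals are not centred. Column medians over all genes were lower in Klf4 (5.51 and 7.27) and Sox2 (3.99 and 7.79) than in SKO-L80A (8.84 and 10.9). They were lower in the library labelled Oct4 as well. The step from 10.0 to 14.1 in the Klf4 genes therefore does not by itself show a gain relative to all genes. The same holds for 9.94 to 14.7 in the Sox2 genes. Membership in the 262 fixes the SKO-L80A and Oct4-L80A levels in part, and the split into groups those of the single-factor libraries. SKO and the library labelled Oct4 entered neither choice.

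**Figure D5:**
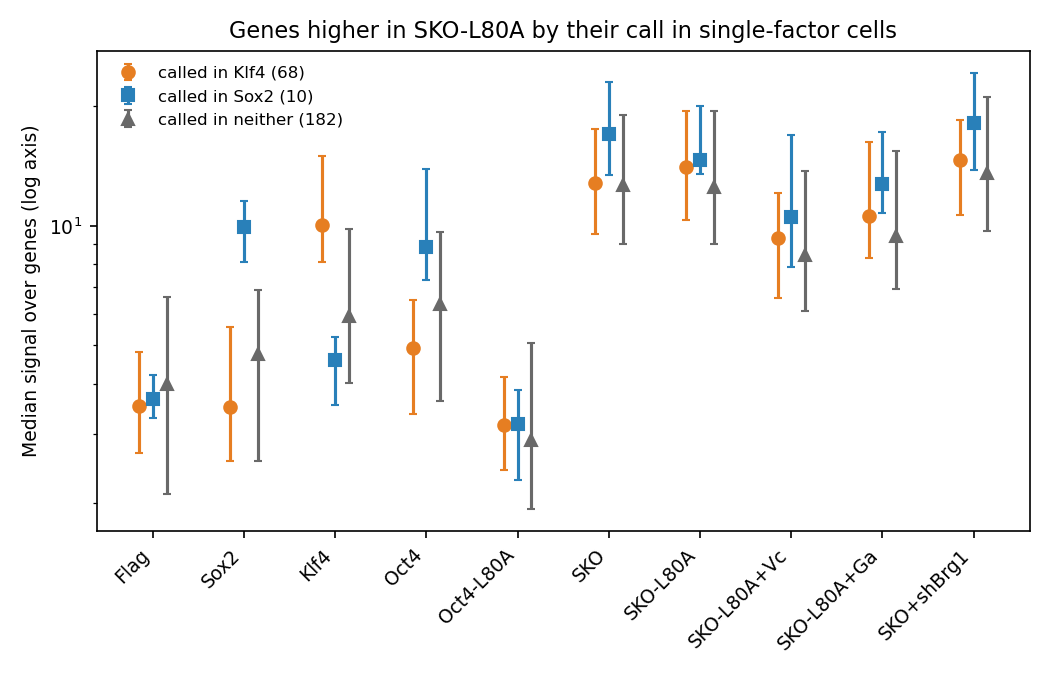
Median signal on a log axis, with bars from the lower to the upper quartile over genes, of the higher genes called in Klf4 (68, circles), in Sox2 (10, squares) and in neither (182, triangles), in each of the 10 conditions. The medians lie between 2.90 and 3.17 in Oct4-L80A and between 12.5 and 14.7 in SKO-L80A, and the Sox2 group is the highest of the 3 in the library labelled Oct4. The signals are not centred, and the median over all genes was 5.41 in Oct4-L80A and 10.0 in SKO-L80A. That median was also lower in Klf4, Sox2 and the library labelled Oct4 than in SKO-L80A.

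Dydc2 and Crocc2, which were high in Klf4 alone, stayed low in the combination. Dydc2 stood at 7.43 and 8.26 in Klf4 but at 0.801 and 0.769 in SKO-L80A, 0.600 and 0.744 in Oct4-L80A and 0.662 and 0.237 in SKO. Crocc2, a ciliary rootlet gene, stood at 11.0 and 9.41 in Klf4 and at 2.74 and 2.21 in SKO-L80A, with a centred difference of 0.38. The Klf4 gene itself had 166 and 146 in Klf4 cells against 62.6 and 83.5 in SKO-L80A, and its part in these values was not tested. Il7r, the interleukin-7 receptor, reached 9.21 and 8.14 for the library labelled Oct4 but had a difference of -0.01 here, with 4.95 and 4.53 against 2.08 and 3.74. Pipox, a peroxisomal sarcosine oxidase, was high in that library as well (11.0 and 10.5) and was called here, at 2.05.

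Some higher genes were neighbours. Of the 254 higher genes with a RefSeq position, 33 had another higher gene within 50 kb (13.0%), beside 3.44% of all placed genes with a higher gene that near. Slurp1, Slurp2 and Ly6d, which encode Ly6-family proteins of keratinocytes, lie together on chromosome 15 (74726644 to 74763567) and had differences of 1.56, 1.32 and 1.43. Ly6d had 8.94 and 7.21 in SKO-L80A against 1.55 and 1.82 in Oct4-L80A. Some neighbours had nearly the same values and may not be separate measurements: Ngef had 13.3 and 14.1 in SKO-L80A and 2.73 and 5.70 in Oct4-L80A, and Neu2 had 13.3 and 14.1 and 2.72 and 5.70. Hspb2 and Cryab, small heat-shock proteins on chromosome 9, both had 35.7 and 32.8 in SKO-L80A but differed in Flag, with 5.64 and 7.44 at Hspb2 and 8.49 and 10.04 at Cryab. Hspb2 was therefore called in Klf4 and Cryab in neither single factor. Of the 262, 251 were protein-coding and 3 were long non-coding RNA genes.

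Promoter letters were counted over the 188 higher genes with a RefSeq promoter entry, 250 bases before to 50 after the start. That is 71.8% of the 262, under the 80% set for such a check, so the check is void as a comparison and the shares are only a description. The median number of CpG dinucleotides was 8, beside 21 for genes at the minimum signal and 9 for the second Flag quartile, where most higher genes lie. KLF letters were in 26.6% of the 188 and in 34.0% of the 47 Klf4 genes with an entry. The shares beside these were 23.8% for genes at the minimum, 22.0% in that quartile and 17.6% of all 32851 promoters. SOX letters were in 2 of the 10 Sox2 genes and in 4.26% of the 188, and the octamer in 2.66%. Genes at the minimum had 1.82% and 1.28%, the second Flag quartile 2.80% and 1.49%, and all promoters 3.78% and 1.74%. The AP-1 letters TGANTCA were in 12.8%, beside 4.24% for genes at the minimum, 7.96% in the second Flag quartile and 7.81% of all promoters. The TEAD letters GGAATG were in 16.5%, beside 11.7%, 14.7% and 14.7% in the same order.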

How the data were processed

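ATAC-seq libraries from 10 conditions, 1 each, were analysed from a table in which the authors deposited a signal for 21965 Ensembl genes in 20 columns, 2 per condition. Per the submitters' processing notes the build was mm10, and the tools included DESeq2 1.22.2, bedtools 2.25.0, deepTools, MACS2 2.1.0, Picard, SAMtools 1.3.1, Bowtie2 2.2.5, cutadapt 1.13 and Trimmomatic 0.35. Their roles, the counting window, the scaling between columns and how the columns of a condition relate were not given in the sources used here. Depth is unknown, and no interval was computed.

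From the deposited signal, differences were computed as log2(signal + 0.138), where the pseudocount is the 10th percentile of values above 0, per column pair, centred on the all-gene median and averaged. Calls needed 2-fold and a signal of 6.92. The columns were counted as 1 replicate. Settings tried were other pseudocounts, minimum signals, centrings and folds, quantile normalisation, lowess (fraction 0.3, 3 iterations) and single or crossed column pairs.

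The named genes were the 12 largest differences in each direction with 1 sign in both pairs (higher ones 2-fold in each), at most 4 called members per list and direction, and a fixed set of factor, pluripotency, epithelial and fibroblast genes and genes named in an earlier account of these data. Not every such gene is printed, some items are not reported here, and further genes were picked with their values in view. The comparison, the 20 lists and the named genes were chosen with earlier results of these data known. Symbols of 20788 genes matched RefSeq (GRCm38.p6), which also gave positions and promoters, 16445 of them for genes in the table. The procedure was tested on simulated data. Python 3.11.15, pandas 2.3.3, numpy 2.4.6, statsmodels 0.14.6 and matplotlib 3.10.9 were used.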

Additional observations from a re-analysis of the deposited data

How the results depend on the processing

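The 262 higher genes became 123 with a minimum signal 2 times larger, 3521 with no centring, 139 with quantile normalisation, 174 with 2-fold in each pair and 74 at 3-fold; other settings gave 181 to 386, and 189 with the lowess trend removed, all 189 among the 262. The 8 lower genes became 2778 with no minimum signal, 3 with the larger minimum, 0 with no centring, 18 with quantile normalisation, 3 with 2-fold in each pair, 15 with column pair 1 alone and 0 at 3-fold. The 12 Sox2 genes became 7 at 3-fold, and the 70 Klf4 genes became 37 with the larger minimum, 131 with no centring and 29 at 3-fold. The 182 genes called in neither became 303 with no minimum signal, 79 with the larger minimum, 3379 with no centring, 79 with quantile normalisation, 113 with 2-fold in each pair, 281 with column pair 1 alone, 40 at 3-fold and 117 when centred on the genes that reach the minimum, an alternative chosen after seeing the data. Column pair 1 alone called 356 genes higher and pair 2 alone 232, with 237 and 199 of the 262 among them. These moves follow from the construction of each setting where fewer or more genes could pass, and otherwise the cause was not tested. Of the 29 higher genes named by the rule, 4 were under 2-fold in at least 1 setting: Krt8 (lowest 0.68), Ccl2 (0.73), Mfap5 (0.84) and Perp (0.95). No called gene named by the rule changed sign under any of these settings. No paired analysis was possible because each condition had 1 library and the columns carry no replicate beyond it. Without read counts, the depth behind any value is unknown, and values near the pseudocount, such as those of Nanog, limit what can be said of closed genes.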

Other observations

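The genes below were picked singly from the 262 after their values were seen, with no list or share behind them. Serping1 (2.11), the C1 inhibitor, had 14.8 and 16.3 in SKO-L80A against 1.75 and 2.35 in Oct4-L80A, and stood at 2.72 and 3.93 in Sox2 and 4.34 and 7.14 in Klf4. Hc (1.87), which encodes complement C5, had 8.91 and 7.40 against 1.17 and 1.26, and stood at 4.67 and 6.57 in Sox2 and 1.04 and 0.936 in Klf4. C9 (1.01), of the membrane attack complex, had 14.6 and 10.3 against 2.18 and 5.77, with 1.53 in pair 1 and 0.48 in pair 2. Endou (2.13), an endoribonuclease, had 11.1 and 8.15 against 1.16 and 1.21, and stayed under the minimum signal in Sox2, Klf4 and the library labelled Oct4. Has1 (1.49), a hyaluronan synthase, had 11.3 and 12.3 against 1.86 and 3.07 and stood at 13.4 and 16.5 in Klf4 alone. Otogl (2.54), an otogelin-like gene, had 9.85 and 7.21 against 0.720 and 0.763, and stood at 3.98 and 2.94 in Sox2 and 0.514 and 0.554 in Klf4.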
